A study of Mus musculus with 6 samples.

Results

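The genes described here are 10 genes of the NF-κB pathway: the subunit genes Nfkb1, Nfkb2, Rela and Relb, the inhibitor genes Nfkbia and Nfkbib, the feedback gene Tnfaip3, and Birc3, Traf1 and Icam1. They were chosen by name from 41388 genes in the expression table, and all 10 passed a filter on low values (a mean of at least 0.5 RPKM, reads scaled to exon length and library size), as did 12693 genes in all. The table holds 6 RNA-seq libraries from primary hepatocytes of C57BL/6J mice, liver parenchymal cells taken into culture, 24 hours after an adenovirus was added at 1000000 viral particles per 1000000 cells. The virus carried β-galactosidase (β-gal) in 3 libraries (replicates 1, 2 and 3) and Aloxe3, which encodes the lipoxygenase eLOX3, in the other 3 (replicates 7, 8 and 9). Virus was thus present in both groups, cells without virus are not part of the comparison, and the age of the mice and the promoter of the vectors are not given in the sources used here.

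NF-κB is a family of transcription factors that bind DNA as pairs of Rel-homology proteins. RelA, RelB and c-Rel carry a transactivation domain, whereas the products of Nfkb1 and Nfkb2 are precursors that are processed to p50 and p52. In resting cells IκB proteins hold the dimers in the cytoplasm. TNF, IL-1 and bacterial products activate the IκB kinase, which marks IκB for degradation and lets RelA and p50 enter the nucleus. A slower, non-canonical branch processes Nfkb2 and acts through RelB. Several targets of the factor act back on it, among them Nfkbia, Tnfaip3, Birc3, Traf1 and the subunit genes Nfkb1, Nfkb2 and Relb. Icam1, a further target, encodes the adhesion molecule that leukocyte integrins bind. In liver, NF-κB protects hepatocytes from TNF-induced death and drives chemokine and acute-phase genes. These data measure RNA only, and neither the location of the subunits nor IκB protein was measured.

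The promoter sequences of 8 of the genes were available from RefSeq (GRCm38.p6) as windows of 300 bases around an annotated start; Nfkb1 and Relb had no entry. The windows were searched on both strands for the 10-base NF-κB consensus (GGG, a purine, any pair of bases, a pair of pyrimidines, CC) and for the 9-base variant GGAAATTCC, which was chosen after the Icam1 window had been read. One stretch with matches from each of 4 genes is printed 5′ to 3′ on the strand of the gene, because they show the letters matched in Icam1, the only gene called changed, beside those in genes that were not called. The Nfkb2 stretch holds the consensus alone and shares no match with Icam1. Capitals mark the matches to either motif on either strand, and in the third stretch the first run in capitals is the variant on the opposite strand.

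Icam1, chr9:21015780-21015939, plus strand: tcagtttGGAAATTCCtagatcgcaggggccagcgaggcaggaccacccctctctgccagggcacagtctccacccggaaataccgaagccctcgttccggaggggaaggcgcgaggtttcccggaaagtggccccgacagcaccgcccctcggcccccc
Nfkbia, chr12:55492648-55492747, minus strand: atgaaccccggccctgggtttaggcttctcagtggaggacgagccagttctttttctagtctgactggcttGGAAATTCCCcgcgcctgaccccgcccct
Tnfaip3, chr10:19015411-19015440, minus strand: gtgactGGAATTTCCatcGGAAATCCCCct
Nfkb2, chr19:46304696-46304725, plus strand: acGGGAATTCCCCccctcggggggccgaaa

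By GENCODE M21 the Tnfaip3 and Nfkb2 stretches lie inside the annotated gene, and the Nfkb2 stretch overlaps 2 annotated exons. The variant lay 153 to 145 bases before the start of Icam1, 29 to 21 bases before that of Nfkbia and 24 to 16 bases before that of Tnfaip3. As it was read from Icam1, its match there was fixed by the choice. Of the 7 other genes with a window 2 held it, beside 0.381% of the 27025 genes with a promoter entry. The consensus was also found in 3 of the 8 genes, Nfkb2, Nfkbia and Tnfaip3, beside 9.55% of all genes, and the Nfkbia match overlaps the variant there. Further consensus matches, not printed, lay 125 to 116 bases before the start of Tnfaip3, 11 to 2 bases before the first start of Nfkb2, and in the windows of the later starts of Nfkb2. Icam1 held the variant but no match to the consensus. The windows of Rela, Nfkbib, Birc3 and Traf1 held neither set of letters. A match is a description of the letters, and binding was not measured.

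**Figure D1:**
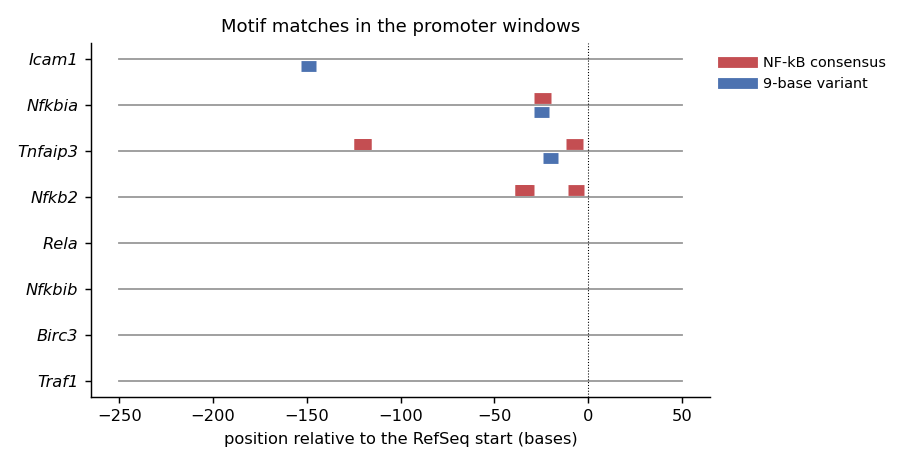
Matches to the NF-κB consensus (red) and to its 9-base variant (blue) along the promoter windows of 8 genes, by position relative to the RefSeq start in bases; for genes with several starts the one farthest upstream is drawn. The variant stands in Icam1, Nfkbia and Tnfaip3, and the lower 4 windows hold no match.

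In β-gal hepatocytes all 10 genes were expressed, from 4.3 RPKM for Traf1 to 76.6 RPKM for Rela. On the RPKM scale, which is per length, the order of mean levels was Rela, Nfkb2, Nfkb1, Nfkbia, Nfkbib, Tnfaip3, Icam1, Relb, Birc3 and Traf1. Each gene was above the next in every pairing of β-gal libraries except Nfkb2 and Nfkb1, whose ranges overlapped. For 6 of the 10 genes the length behind the values was not the GENCODE M21 exon length, so close ranks, such as 31.2 RPKM for the lowest Nfkbia and 30.9 for the highest Nfkbib library, depend on that length. Rela stood above 94.9% of all tested genes and Traf1 above 38.8%. In the Aloxe3 libraries the order of the ranges differed in 2 places, since Nfkbia overlapped Nfkbib and Icam1, which lay below Tnfaip3 in all β-gal libraries, now overlapped it.

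The comparison of Aloxe3 with β-gal asks what forced expression of the enzyme does to transcripts of the pathway. Icam1 rose and was the only one of the 10 genes past an adjusted p of 0.05 (limma with Benjamini-Hochberg adjustment over all tested genes). That is 1 of 10 genes, or 10%, beside 0.394% of all tested genes (50 of 12693, of which 45 were higher and 5 lower in Aloxe3). The share rests on 1 gene, and the 10 were chosen with earlier results of these data known. Icam1 stayed past the threshold in 5 of 13 alternatives of the processing. The 9 other genes had log2 fold changes between -0.09 and 0.13, on the log2(RPKM + 1) scale used for all fold changes here, with adjusted p from 0.338 to 0.941. Their 95% intervals together ran from -0.21 to 0.25. The median log2 fold change was -0.014 over the 10 genes and 0.005 over all tested genes. The values of the Aloxe3 group lay wholly above or wholly below those of the β-gal group for 3 genes (Icam1, Traf1 and Birc3), beside 19.9% of all tested genes.

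**Figure D2:**
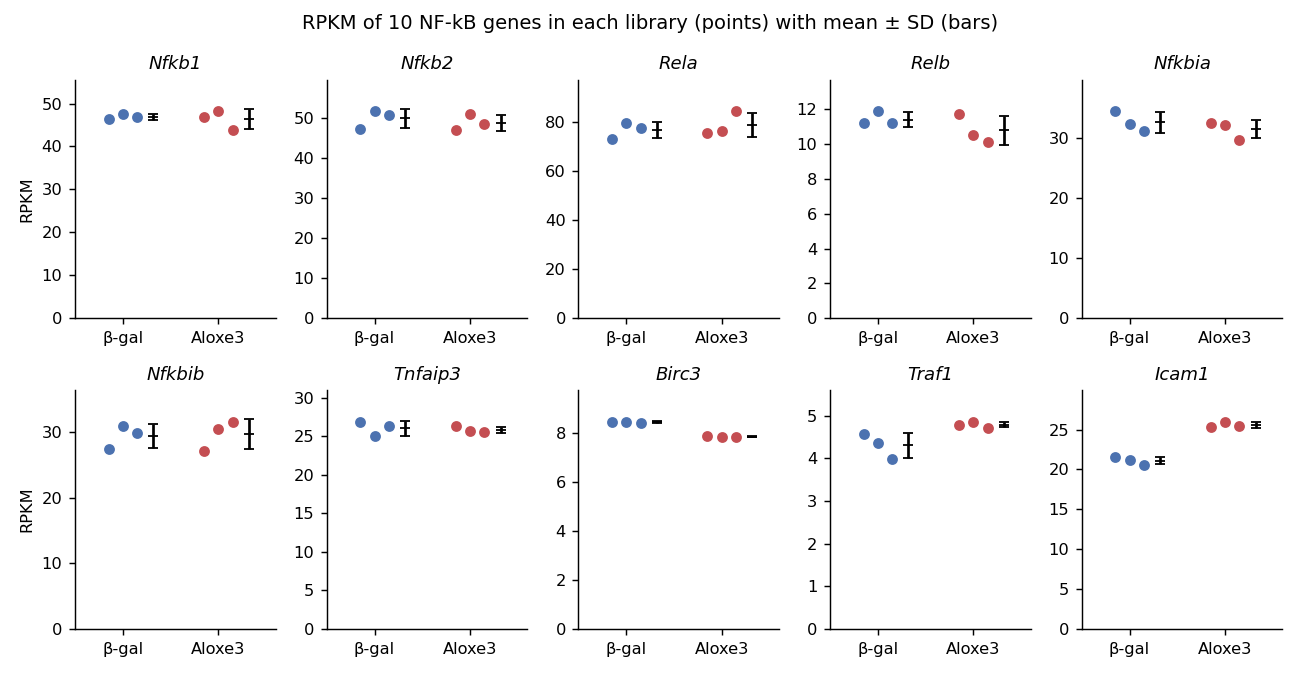
RPKM of each gene in the 3 β-gal (blue) and 3 Aloxe3 (red) libraries, with the mean ± SD of each group in black; every y axis starts at 0. Icam1 and Traf1 lie higher in all Aloxe3 libraries, Birc3 lies lower in all of them, and the groups overlap for the other 7 genes.

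Icam1 (chr9:21015985-21028817, plus strand, GRCm38) measured 21.5, 21.2 and 20.5 RPKM in the β-gal libraries and 25.3, 26.0 and 25.5 RPKM in the Aloxe3 libraries. The lowest Aloxe3 library was thus above the highest β-gal library. Its mean went from 21.1 ± 0.475 to 25.6 ± 0.356 RPKM (SD, n = 3 each), a rise of 21.3%. The log2 fold change was 0.27 (SE 0.03, 95% interval 0.19 to 0.35), with a limma adjusted p of 0.0271, and Icam1 ranked 33 by p among all tested genes. These values rest on at least 1543 to 2004 reads per library, recovered from the steps of the RPKM values with the smallest exon length at which they come out whole (with lengths set in this way, the reads of all genes add up to 99.93% of the library size). At that depth counting alone gives an error of at most 2.44% in β-gal and 2.37% in Aloxe3. The libraries varied by 2.26% and 1.39% of the mean, both below these upper limits. The SE of Icam1 was 0.034, beside 0.035 for Birc3, and 3.09% of tested genes had an SE at or below that of Birc3. The call thus rests on a small spread. The call was lost without the filter on low values (adjusted p 0.0958), without the variance trend (adjusted p 0.0631) and when any 1 library was left out, the last with a log2 fold change of 0.25 to 0.28 and an adjusted p of 0.0672 to 0.141. An exact permutation test of 3 against 3 libraries gave p = 0.1, the smallest it can give, for Icam1, Traf1 and Birc3 alike. Icam1 shares 511 exon bases with an antisense gene, Gm47079, which has no row in the table. The libraries were not stranded, so reads from either strand could not be told apart there.

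The difference was also written as ratios of Icam1 to genes that were not called, which restate it and add no independent support. The ratio of its RPKM to that of Rela, the main transactivating subunit, was 0.276 ± 0.0158 in β-gal and 0.326 ± 0.0208 in Aloxe3 (SD, n = 3 each). Against Nfkbia, which shares the 9-base variant in its promoter, the ratio went from 0.645 ± 0.0215 to 0.812 ± 0.0398. Against Tnfaip3, which also holds it, the ratio was 0.81 ± 0.0353 and 0.99 ± 0.0252. Icam1 to Nfkb1 gave 0.449 ± 0.013 and 0.552 ± 0.0255. None of these 4 ratios overlapped between the groups, with an exact permutation p of 0.1 each, the smallest possible.

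The subunit genes gave no call. Rela, the most abundant of the 10, measured 73.0, 79.4 and 77.3 RPKM in β-gal and 75.5, 76.1 and 84.4 RPKM in Aloxe3. The groups overlapped, and the highest value came from Aloxe3 replicate 9. Its log2 fold change was 0.04 (SE 0.05, 95% interval -0.09 to 0.16, adjusted p 0.808). Nfkb1, the gene of p105 and p50 (chr3:135584655-135691547, minus strand), measured 46.3, 47.6 and 46.9 RPKM in β-gal and 46.9, 48.3 and 43.8 RPKM in Aloxe3. Both the highest and the lowest of the 6 values were Aloxe3 libraries, and the 95% interval of the log2 fold change was -0.12 to 0.08.

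The non-canonical pair lay slightly lower on average in Aloxe3, within the spread. Nfkb2, the gene of p100 and p52, had 47.3, 51.8 and 50.7 RPKM in β-gal and 46.9, 51.0 and 48.4 RPKM in Aloxe3. The ratio of Nfkb2 to Nfkb1 was 1.06 ± 0.0369 and 1.05 ± 0.052 (SD, n = 3 each). On the opposite strand, Nfkb2 shares 531 exon bases with AC114539.1 and 299 with Psd, which was at 2.26 and 2.39 RPKM. Relb, the partner of p52, had 11.2, 11.9 and 11.2 RPKM in β-gal and 11.7, 10.5 and 10.1 RPKM in Aloxe3. The Relb groups overlapped through Aloxe3 replicate 7, and its interval of -0.21 to 0.06 was one of the widest of the 10.

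Neither inhibitor gene was called. Nfkbia, which encodes IκBα, the inhibitor that NF-κB itself induces, measured 34.6, 32.4 and 31.2 RPKM in β-gal and 32.5, 32.3 and 29.8 RPKM in Aloxe3. The log2 fold change was -0.05 (SE 0.05, 95% interval -0.17 to 0.07, adjusted p 0.723). The ratio of Nfkbia to Rela, inhibitor to subunit, was 0.428 ± 0.0395 in β-gal and 0.403 ± 0.0427 in Aloxe3 (SD, n = 3 each), and the groups overlapped (exact permutation p = 0.6). Nfkbib, the gene of IκBβ, had 27.4, 30.9 and 29.8 RPKM in β-gal and 27.1, 30.5 and 31.6 RPKM in Aloxe3. Replicate 1 and replicate 7 were the low libraries of their groups, and the direction of its small difference turned when some single libraries were left out. On the opposite strand, Nfkbib shares 314 exon bases with Ccer2, at 0.00983 and 0.0344 RPKM, and 42 with Sirt2, at 33.9 and 32.5 RPKM.

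Among the feedback genes, Tnfaip3, whose product A20 edits ubiquitin chains and shuts off IκB kinase signaling, had the log2 fold change nearest to 0 of the 10. It measured 26.9, 25.0 and 26.3 RPKM in β-gal and 26.3, 25.7 and 25.5 RPKM in Aloxe3, with all Aloxe3 values inside the β-gal range. The log2 fold change was -0.01 (95% interval -0.10 to 0.08).

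Birc3 and Traf1, whose products cIAP2 and TRAF1 sit in the same TNF receptor 2 complex, gave estimates of opposite sign, neither of them called. Birc3 measured 8.44, 8.45 and 8.38 RPKM in β-gal and 7.86, 7.84 and 7.82 RPKM in Aloxe3. All Aloxe3 values were below the β-gal values, and limma put the log2 fold change at -0.09 (SE 0.04) and the adjusted p at 0.338. Its libraries varied by 0.43% and 0.28% of the mean, less than the 2.75% and 3.05% that counting alone gives at its 1005 to 1373 reads, so the closeness of its replicates is below counting error. Traf1 measured 4.56, 4.36 and 3.98 RPKM in β-gal and 4.79, 4.86 and 4.72 RPKM in Aloxe3. All Aloxe3 values were above the β-gal values, and the estimate was 0.13 on the log2 scale (SE 0.05) at an adjusted p of 0.367. The ratio of Traf1 to Birc3 was 0.51 ± 0.0334 in β-gal and 0.611 ± 0.00814 in Aloxe3 (SD, n = 3 each). Without adjustment, 3 of the 10 genes (Icam1, Birc3 and Traf1) had a p under 0.05, beside 12.7% of all tested genes.

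**Figure D3:**
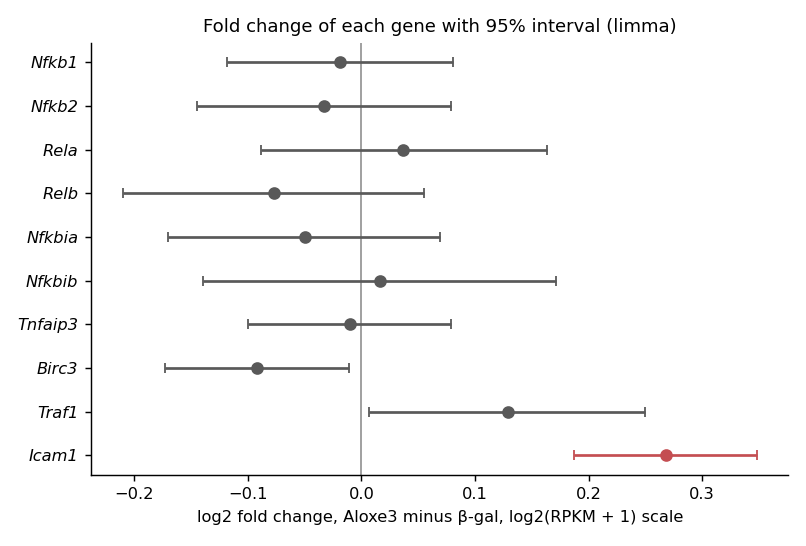
Log2 fold change of each gene, Aloxe3 minus β-gal on the log2(RPKM + 1) scale, with its 95% interval from limma. Icam1 (red, 0.27) is the gene past the adjusted threshold; the intervals of Birc3 and Traf1 leave out 0 before adjustment, and those of the other 7 genes include it.

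**Figure D4:**
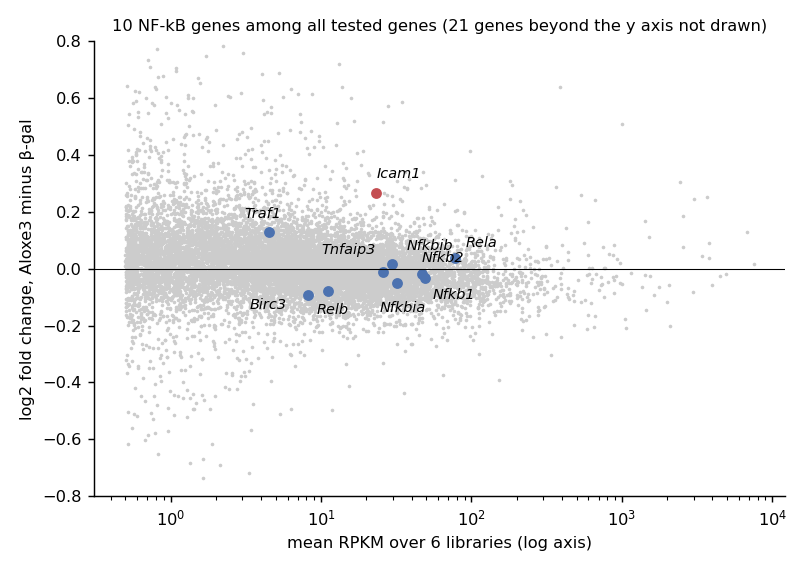
Mean RPKM over the 6 libraries (log axis) against the log2 fold change for all 12693 tested genes (gray), with the 10 genes drawn larger; 21 genes lie beyond the y axis and are not drawn. Icam1 (red) lies above most genes of its level, and the other 9 (blue) lie within the gray cloud.

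The rest of the pathway was described with 7 lists of 125 genes, of which 103 were tested. None was called by limma, 14 had an unadjusted p under 0.05 (13.6%, beside 12.7% of all tested genes; 10 higher and 4 lower in Aloxe3), and voom on the recovered reads called 2, Tnfaip2 and C3. The groups did not overlap for 21 of them (20.4%, beside 19.9%). Their median log2 fold change was 0.02.

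The upstream genes showed small differences. Of 14 tested receptors, 1 had an unadjusted p under 0.05: Il1r1, the signaling receptor of IL-1, with 4.05 and 4.5 RPKM (means of β-gal and Aloxe3, adjusted p 0.343). The most abundant receptor was Tnfrsf12a, the receptor of TWEAK, with 311 and 297 RPKM, ahead of Cd14, the LPS co-receptor, with 75.1 and 73.4 RPKM, and Ltbr, the lymphotoxin β receptor that feeds the non-canonical branch, with 64.6 and 61.4 RPKM. Cd40, a further receptor of that branch, had 4.93 and 4.18 RPKM with overlapping groups (adjusted p 0.421). Of 6 tested ligands, the cytokine gene Il1a had the smallest p, with 2.9, 2.98 and 2.98 RPKM in β-gal and 3.61, 3.63 and 3.53 RPKM in Aloxe3 (log2 fold change 0.22, adjusted p 0.126). Its groups did not overlap. The most abundant ligand was Tnfsf12, the gene of TWEAK, with 4.81 and 4.72 RPKM, and the inflammasome cytokines had 1.71 and 1.96 RPKM for Il1b (groups without overlap, adjusted p 0.429) and 3.37 and 2.83 RPKM for Il18 (groups overlapping, adjusted p 0.39). All 30 adaptors, ubiquitin ligases and IκB kinases were tested, with a median of -0.006 and log2 fold changes between -0.15 and 0.09. The lowest was Myd88, the adaptor of Toll-like and IL-1 receptors, with 22.3 ± 0.838 and 19.9 RPKM (adjusted p 0.289). All Aloxe3 values of Myd88 were below the β-gal values. Tank, an adaptor of the kinase TBK1, had 4.46 and 4.83 RPKM, and Rnf31, the catalytic subunit of the linear ubiquitin ligase, had a log2 fold change of -0.08 (adjusted p 0.51). The most abundant of these genes were Irak1, a kinase of the IL-1 receptor complex, with 31.6 and 30.6 RPKM, Rbck1, a partner of Rnf31, with 31.7 and 30.6 RPKM, and Tab2, a TAK1-binding adaptor, with 28.1 and 29.4 RPKM.

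The other members of the Rel and IκB families gave no unadjusted p under 0.05 in 7 tested genes. Nfkbie, the gene of IκBε, had the largest difference, from 3.6 ± 0.6 to 4.29 RPKM (adjusted p 0.466). The most abundant was Bcl3, a nuclear IκB protein, with 34.6 and 35.2 RPKM. Nfkbiz, the gene of the nuclear protein IκBζ, had 11.8 and 11.9 RPKM. Nkiras1 and Nkiras2, small GTPases that bind IκB, had 1.81 and 1.62 RPKM and 13.1 and 13.1 RPKM. All Aloxe3 values of Nkiras1 were below the β-gal values. Of 14 tested negative regulators, 1 had an unadjusted p under 0.05. This was Zc3h12a, the gene of the RNase Regnase-1, lower in all Aloxe3 libraries (log2 fold change -0.11, adjusted p 0.313). Rnf11, a partner of A20, was the most abundant of these, with 90.1 and 90.7 RPKM, ahead of Tollip, an inhibitor of IL-1 receptor signaling, with 33.8 and 31.7 RPKM. Tnip1, which binds A20, had 27.6 and 29.8 RPKM without overlap (adjusted p 0.433), and Il1rn, the IL-1 receptor antagonist, had 11.0 and 12.0 RPKM (adjusted p 0.419).

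Other known targets of NF-κB were higher in Aloxe3 more often than lower, though limma called none (voom on the recovered reads called Tnfaip2 and C3, and limma with the filter at 5 RPKM called Tnfaip2). Of 24 tested, 20 had a positive log2 fold change, beside 6647 of all 12693 tested genes, and the median was 0.07. The list was chosen with earlier results of these data known, and its genes were measured in the same libraries. Such counts therefore describe the list and are no test of it. The count of signs was not repeated with single libraries left out. An unadjusted p under 0.05 and a higher level in Aloxe3 was seen for 8 of them, beside 7.31% of all tested genes. Gadd45b, the 1 with such a p that was lower, had 26.1 and 23.2 RPKM (means of β-gal and Aloxe3, adjusted p 0.31). All Aloxe3 values of Gadd45b were below the β-gal values. Tnfaip2, a TNF-induced gene, came nearest to the threshold: it measured 9.69, 10.1 and 10.1 RPKM in β-gal and 12.4, 11.7 and 12.1 RPKM in Aloxe3, and limma put the log2 fold change at 0.25 (SE 0.04) and the adjusted p at 0.0544. The groups did not overlap. C3, the central complement component, went from 558 ± 10.6 to 627 ± 11.1 RPKM (SD, n = 3 each; adjusted p 0.168). Cxcl2, a neutrophil chemokine, had 8.32, 8.43 and 7.89 RPKM in β-gal and 9.11, 10.9 and 11.7 RPKM in Aloxe3, again without overlap (adjusted p 0.217). The most abundant target was the monocyte chemokine Ccl2, with 731 ± 26.2 and 772 ± 56.1 RPKM and overlapping groups, and Lcn2, an iron-siderophore binding protein, had 270.0 and 274 RPKM.

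**Figure D5:**
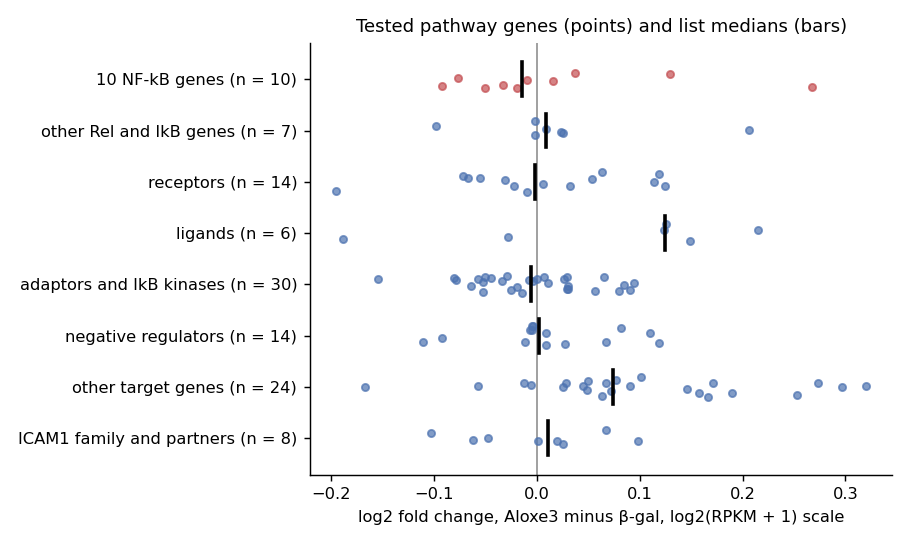
Log2 fold changes, Aloxe3 minus β-gal on the log2(RPKM + 1) scale, of the tested genes in each pathway list (points) with the list median (black bars). The 10 genes (red) center near 0 with Icam1 at the right edge, and the other target genes have a median of 0.07.

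ICAM1 also works with partners, and these were looked at last. Icam2 was at 0.634 and 0.574 RPKM, Icam4 was listed at 0 in all 6 libraries, and Icam5 was at 0 in all but 1. The ERM and actinin genes, which tie ICAM1 to the cytoskeleton, were abundant: Actn1 had 365 and 349 RPKM, Msn 246 and 246 RPKM, and Actn4 184 and 187 RPKM. Ezr had 51.4 and 55.1 RPKM (adjusted p 0.498) and Rdx 43.2 and 45.3 RPKM (adjusted p 0.516). None of the 8 tested genes of this list had an unadjusted p under 0.05.

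The depth of the libraries was 25521908 to 32431318 reads. Aloxe3 itself, the gene carried by the virus, rose from 1.95 ± 0.178 to 48.1 ± 7.32 RPKM (SD, n = 3 each; log2 fold change 4.05, limma adjusted p 4.74e-06), which is the direction the labels give. Aloxe3 replicate 9 stood farther from its group than any other library: the chi-square per gene was 10.05 and 11.1 against replicates 7 and 8, and 3.81 to 6.13 for all other pairs within a group. The summed RPKM of 9 hepatocyte markers was 5035 to 5084 in β-gal and 4874 to 5013 in Aloxe3, nearly all of it Alb at 4524 and 4445. Of these markers limma called Ttr, the gene of transthyretin, which fell from 124 ± 6.46 to 100.0 ± 1.06 RPKM (SD, n = 3 each; adjusted p 0.0448). Apoa1 was also lower in all Aloxe3 libraries (243 and 227 RPKM, adjusted p 0.349) and Cps1 higher in all of them (0.985 and 1.5 RPKM, adjusted p 0.161). Transferrin, the tenth marker, is not in the sum because it was listed under another symbol; as Trf it was at 100.0 and 110.0 RPKM, higher in all Aloxe3 libraries (adjusted p 0.264). Markers of 5 other cell types were read because Icam1 is also expressed by endothelial cells and macrophages, and in bulk RNA more cells of a type and more RNA per cell cannot be told apart. The 9 endothelial markers summed to 28.4 to 32.8 RPKM in β-gal and 27.9 to 32.5 in Aloxe3, with Cdh5 at 15.3 in both groups. The 10 Kupffer cell and macrophage markers summed to 154 to 157 and 135 to 148 RPKM, mostly Cd68, a lysosomal protein gene at 148 and 133, with Adgre1 at 1.67 and 1.56, Csf1r at 1.38 and 1.47, and Tyrobp at 2.23 and 2.59. The 8 stellate cell markers summed to 4.55 to 5.02 and 4.39 to 4.92 RPKM, led by Col1a1 at 2.37 and 2.27, with Lrat at 0. The 8 T, NK and B cell markers summed to 0.0425 to 0.0603 and 0.0807 to 0.131 RPKM, led by Cd79a at 0.0367 and 0.083, with Nkg7, Gzma and Ms4a1 at 0. The 6 cholangiocyte markers summed to 1509 to 1593 and 1577 to 1716 RPKM, nearly all from Spp1. The hepatocyte sum (without Trf) and the macrophage sum were thus lower in all Aloxe3 libraries, the T, NK and B cell sum was higher in all of them at a level near 0, and the endothelial sums overlapped; the part of these markers in the Icam1 difference was not tested.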

How the data were processed

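RNA-seq was analysed from 6 libraries of primary murine hepatocytes, 3 per group, with groups and replicate numbers taken from the labels. The labels do not say whether the libraries of a group are separate cultures or animals, so p-values measure the spread between these libraries, which may be technical. Per the labels and the study's methods, poly-A RNA was sequenced as single reads of 50 bases in 1 run, aligned with STAR 2.0.4b to GRCm38.p2, and counted per gene with featureCounts 1.4.5 from uniquely aligned, unambiguous reads. The authors deposited RPKM values for 41388 Ensembl genes, and how these were made from counts is not given in the sources used here. No column was left unused.

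Symbols and coordinates came from GENCODE M21 (GRCm38), which matched 40254 identifiers. RPKM values moved in steps of whole reads (tolerance 0.01 reads), which gave library sizes and reads per gene; for 8582 genes without a matching exon length, the smallest length giving whole reads was taken. Counting errors cover counting only. Genes whose mean over the libraries reached 0.5 RPKM were tested on log2(RPKM + 1) with limma 3.58.1 (R 4.3.3; empirical Bayes with a mean-variance trend, no covariates), with Benjamini-Hochberg adjustment over all 12693 genes at 0.05. The test was checked on simulated data. Single values were tested with two-sided exact permutation tests. Ratios and promoter motifs were computed in Python 3.11.15.

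The 10 genes and the lists were chosen with earlier results of these data known. Named from each pathway list were the called genes, the 3 with the smallest p and the 3 highest in RPKM. Also named were the 5 genes closest to Icam1 by correlation, and from the marker lists the highest gene and those at 0. Gadd45b, Ttr, Trf, Icam2, Icam5, Apoa1, Cps1, Adgre1, Csf1r, Tyrobp and the genes that overlap one of the 10 were added after their values were seen. Alternatives were a pseudocount of 0.1, no filter or one at 5 RPKM, 2 other scalings, no trend, voom on recovered reads, and leaving out each library. Applying the pseudocount and the scalings to the exact permutation tests was chosen after seeing the data.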

Additional observations from a re-analysis of the deposited data

How the results depend on the processing

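The direction of Icam1 held under all 13 alternatives, with log2 fold changes from 0.25 to 0.28 and limma adjusted p from 0.00487 to 0.141. It stayed past the threshold in 5 of them. The log2 fold change was 0.268 without a filter (adjusted p 0.0958) and 0.268 without the variance trend (adjusted p 0.0631), so that 0 of the 10 genes were called in both. Leaving out 1 library gave 0 of the 10 genes in every case, with 0.25 to 0.28 for Icam1. Of all tested genes 50 were called, 7 without a filter, 174 with voom and 6 to 19 with 1 library left out, where fewer libraries enter. Of the pathway lists 1 gene (Tnfaip2) was called with the filter at 5 RPKM and 2 (Tnfaip2 and C3) with voom, and 0 under the other alternatives. The cause was not tested for the other settings.

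Some small differences changed sign without being called. Nfkb1 was at 0.002 under quantile normalization and at 0.02 without Aloxe3 replicate 9, and Rela at -0.013 without that library, in leave-one-out ranges of -0.049 to 0.02 for Nfkb1 and -0.013 to 0.065 for Rela. Nfkbib was at -0.031 without β-gal replicate 1, at -0.003 without Aloxe3 replicate 8 and at -0.028 without Aloxe3 replicate 9, and Tnfaip3 at 0.011 without β-gal replicate 1. Their leave-one-out ranges were -0.031 to 0.079 for Nfkbib and -0.039 to 0.011 for Tnfaip3. Nfkb2, Relb, Nfkbia, Birc3 and Traf1 had the same sign under every alternative that gave a value, and Traf1 did not pass the filter at 5 RPKM. Over the alternatives Nfkb2 ran from -0.071 to -0.006, Relb from -0.134 to -0.038 and Nfkbia from -0.083 to -0.011. Birc3 ran from -0.105 to -0.09 and Traf1 from 0.084 to 0.164. Both scalings moved the median of all genes by 0.011. No paired analysis was possible because the groups share no replicate number. With 3 libraries a group, differences of the size seen for Birc3 and Traf1 did not pass the adjusted threshold.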

Other observations

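The genes whose levels followed Icam1 most closely were sought among 11255 protein-coding genes on log2(RPKM + 1), as a description over 6 libraries that fall into 2 groups, with no test. Dpp4, a membrane peptidase, had a Pearson correlation of 0.9974, Chn2, a Rac GTPase-activating protein, 0.9962, and Gtf3a, a transcription factor for 5S ribosomal RNA, 0.9961. Nasp, a histone chaperone, and Dnajc9, a further chaperone of histones, were both at 0.9908. Of all genes compared, 76 were above 0.95. None of these 5 genes is in the NF-κB lists.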
